A study of Danio rerio with 16 samples.

Results

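Hox cluster genes were examined in whole zebrafish embryos collected 48 h after fertilisation (48 hpf), in wfikkn1 mutants and wild types exposed to dioxin or to solvent. A gene was taken when its symbol named 1 of the Hox clusters a to d together with a paralog number and when it had at least 10 counts summed over all libraries. This gave 47 of the 32520 gene identifiers in the count table, with 6 genes in cluster hoxaa, 5 in hoxab, 11 in hoxba, 3 in hoxbb, 11 in hoxca, 4 in hoxcb and 7 in hoxda. Just outside the minimum lay hoxb8b with 6 counts over all libraries, and just inside it lay hoxb6b with 25 and hoxb1b with 35. For 43 of the 47 genes the counts were high enough to test, while hoxb1a, hoxb1b, hoxb5b and hoxb6b could only be described.

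The groups were wfikkn1 mutants exposed to TCDD (n = 4), wfikkn1 mutants exposed to DMSO (n = 4), wild types exposed to TCDD (n = 3) and wild types exposed to DMSO (n = 3). The wild type was the Tropical 5D laboratory line. The kind of mutation in wfikkn1 and its zygosity are not given in the sources used here. Exposure lasted 1 h and began at 4 hpf, with 1 ng/mL TCDD or with 0.1% DMSO as vehicle. Each sample was a pool of 9 embryos kept in a dish of its own. Neither wild-type group has its replicate 2 here, since those pools were not analysed.

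Hox genes encode homeodomain transcription factors that give cells their position along the head-to-tail axis. They lie in clusters, and their order along the chromosome, counted by paralog number, follows the order in which they are switched on along the body: low numbers from the hindbrain on, middle numbers in the trunk, high numbers in the tail and at the tips of fins or limbs. Teleost fish carry duplicated clusters, so that many genes have an a and a b copy. Hox proteins bind DNA together with TALE cofactors of the Pbx, Meis and Pknox families. Upstream, Cdx factors, retinoic acid and the TGF-beta ligand GDF11 set Hox domains, and Polycomb and Trithorax proteins keep them off or on. WFIKKN1 is a secreted protein that binds GDF11 and myostatin, and TCDD is a dioxin that activates the aryl hydrocarbon receptor.

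The targeted gene was low in the mutants and responded to TCDD in both lines. wfikkn1 had 14, 15, 21 and 22 counts in TCDD-exposed mutants, 0, 0, 4 and 3 in DMSO mutants, 214, 454 and 520 in TCDD-exposed wild types, and 10, 12 and 19 in DMSO wild types. Library totals ran between 20597475 and 26884477 counts, of which Hox genes took 0.0939% to 0.111%, and 3 counts in a library correspond to 0.110 to 0.145 CPM (counts scaled to library size with TMM factors). Levels are not divided by transcript length, so they compare groups within a gene and do not rank genes. Along the main direction of variation among replicates, which held 28.8% of the within-group variance, libraries scored 11.1 to 28.9 in TCDD-exposed mutants, -30.4 to 8.48 in DMSO mutants, -28.1 to -14.8 in TCDD-exposed wild types and -10.7 to 40.3 in DMSO wild types. Weights of 42 Hox genes on that direction had a median percentile of 59.3 among 15143 genes, with hoxc13a at 97.4, hoxd12a at 96.9, hoxd10a at 96.3 and hoxc1a at 15.2. The part of this direction in the results was not tested.

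Summed over all 47 genes, Hox RNA was lower in every TCDD pool than in every DMSO pool of the mutants. In wild types the same separation depended on the scaling: the highest TCDD pool had 1049.9 CPM against 1055.9 CPM in the lowest DMSO pool with TMM factors, and 1048.2 CPM against 1042.2 CPM without them. The sum was 990.4 ± 21.8 CPM in TCDD-exposed mutants and 1059.7 ± 30.0 CPM in DMSO mutants (SD, n = 4 each), and 986.3 ± 55.7 CPM in TCDD-exposed wild types and 1067.6 ± 11.7 CPM in DMSO wild types (SD, n = 3 each). For the anterior paralogs 1 to 3, the 9 genes summed to between 350.8 and 375.5 CPM in TCDD-exposed mutants and between 402.6 and 436.2 CPM in DMSO mutants. In wild types the same sum lay between 362.8 and 414.2 CPM with TCDD and between 399.2 and 427.2 CPM with DMSO. The anterior sums of the mutant pools did not overlap between exposures, and those of the wild-type pools did. A single anterior gene, hoxc1a, averaged 34.9 CPM in TCDD-exposed mutants and 72.5 CPM in DMSO mutants, beside anterior sums that averaged 358.7 CPM and 416.8 CPM in these groups. Because whole embryos were sampled, fewer cells of a type and less RNA per cell cannot be told apart.

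The central paralogs 4 to 8, 15 genes, summed to 321.6 to 322.8 CPM in TCDD-exposed mutants and to 301.3 to 317.5 CPM in DMSO mutants. They summed to 307.8 to 325.0 CPM in TCDD-exposed wild types and to 296.6 to 340.3 CPM in DMSO wild types. The central sum was thus higher in every TCDD pool of the mutants, while the wild-type ranges overlapped. It includes hoxa4a, whose paralog number is uncertain and which averaged 69.3 CPM in TCDD-exposed mutants and 80.8 CPM in DMSO mutants. The posterior paralogs 9 to 13, 23 genes, summed to 293.5 to 321.6 CPM in TCDD-exposed mutants and to 327.5 to 347.2 CPM in DMSO mutants. In wild types the posterior sum was 270.1 to 310.6 CPM with TCDD and 316.6 to 343.8 CPM with DMSO. The posterior sum was lower in every TCDD pool than in every DMSO pool of the same line. The paralog 9 gene hoxb9a alone averaged 84.5 CPM with TCDD and 102.6 CPM with DMSO in mutants. In wild types hoxb9a averaged 78.2 CPM with TCDD and 104.2 CPM with DMSO. Gene by gene, 16 of the 23 had positive log2 fold changes in mutants and 13 in wild types. The lower sum thus does not describe most posterior genes. No test was run on these sums, which weigh genes by their counts.

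**Figure D1:**
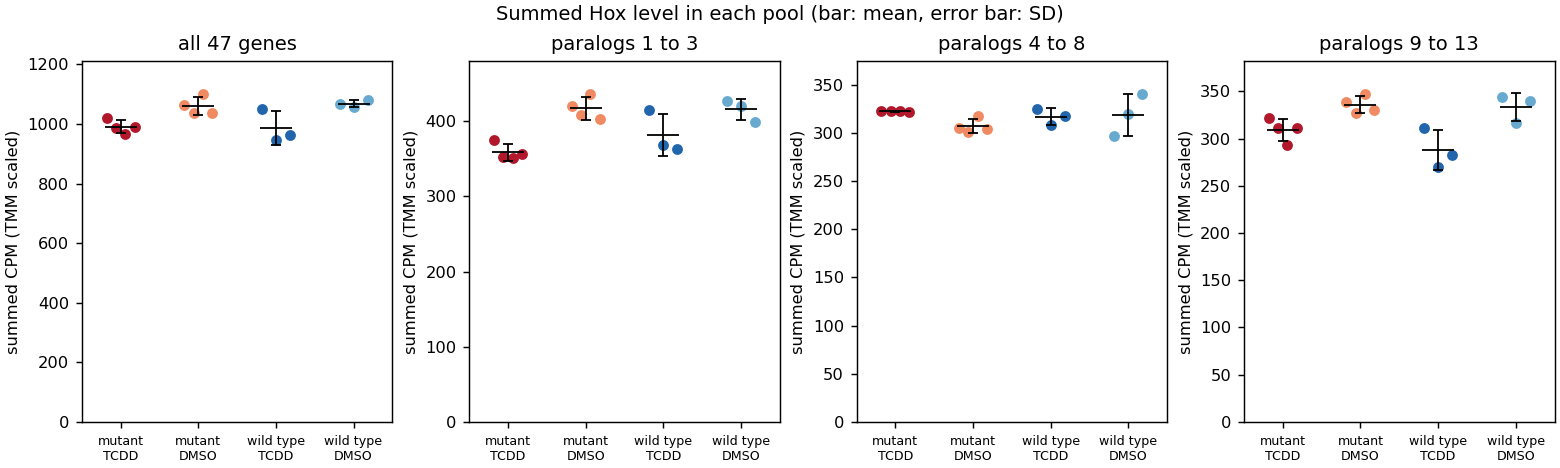
Summed Hox level (CPM, TMM scaled, linear axes from 0) in each pool for all 47 genes and for paralogs 1 to 3, 4 to 8 and 9 to 13, with points for pools, a bar for the mean and an error bar for the SD. Anterior sums lie between 350.8 and 375.5 CPM in TCDD-exposed mutants, below the 402.6 to 436.2 CPM of DMSO mutants.

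By cluster, the 11 hoxca genes summed to 185.2 to 199.6 CPM in TCDD-exposed mutants, against 220.9 to 242.9 CPM in DMSO mutants. The 6 hoxaa genes summed to 99.5 to 105.0 CPM in TCDD-exposed mutants, against 114.8 to 122.8 CPM in DMSO mutants. For both clusters the mutant pools did not overlap, and the wild-type pools did. The hoxca sum averaged 193.2 CPM in TCDD-exposed mutants and 231.6 CPM in DMSO mutants. This gap was about as wide as that of hoxc1a alone (34.9 CPM and 72.5 CPM). hoxc9a (27.4 CPM with TCDD, 43.8 CPM with DMSO) and hoxc3a (45.6 and 51.7 CPM) were also lower on average. The other 8 hoxca genes had positive log2 fold changes, 5 of them called, so hoxc1a is not the only gene behind the sum. The 11 hoxba genes summed to 435.5 to 452.5 CPM in TCDD-exposed wild types, against 486.2 to 514.4 CPM in DMSO wild types, with no overlap; in mutants the hoxba ranges of 454.4 to 477.4 CPM with TCDD and 474.6 to 493.6 CPM with DMSO met.

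The 3 hoxbb genes were close to the detection floor, and their sum stayed between 0.165 and 0.728 CPM in all 14 libraries. hoxb5b had 0.194, 0.132, 0.232 and 0.0776 CPM in TCDD-exposed mutants, 0.0967, 0.0366, 0.361 and 0.0412 CPM in DMSO mutants, 0.268, 0.159 and 0.138 CPM in TCDD-exposed wild types and 0.471, 0.278 and 0.490 CPM in DMSO wild types. hoxb6b had at most 0.0926 CPM in TCDD-exposed mutants, 0.0902 CPM in DMSO mutants, 0.138 CPM in TCDD-exposed wild types and 0.232 CPM in DMSO wild types. hoxb1a, which marks the fourth segment of the hindbrain, was also low, with 0.0388 to 0.427 CPM in TCDD-exposed mutants, 0.0412 to 0.271 CPM in DMSO mutants, 0.138 to 0.516 CPM in TCDD-exposed wild types and 0.0927 to 0.343 CPM in DMSO wild types. The hoxb5b pools of the wild types did not overlap between exposures, and neither did the hoxbb sums there, at 0.358 to 0.491 CPM with TCDD and 0.535 to 0.728 CPM with DMSO. These genes were not tested, and many of their values are at or under 3 counts. In the RefSeq gene table, which belongs to another assembly, hoxb1b overlaps hoxb5b and hoxb6b, so reads of the hoxbb genes may be split or dropped.

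hoxb3a and hoxd3a, which act from the hindbrain on, had the most counts in clusters hoxba and hoxda. hoxb3a had 190.1, 177, 183 and 174 CPM in TCDD-exposed mutants, 190.4, 191, 202 and 188 CPM in DMSO mutants, 180.5, 173 and 178 CPM in TCDD-exposed wild types and 207, 205 and 178 CPM in DMSO wild types. hoxd3a had 58.3, 57.3, 58.04 and 61.4 CPM in TCDD-exposed mutants, 54.1, 57.6, 59.4 and 48.5 CPM in DMSO mutants, 57.1, 66.7 and 53.3 CPM in TCDD-exposed wild types and 55.8, 55.3 and 64.5 CPM in DMSO wild types. The pools of both genes overlapped between exposures in both lines, and neither gene had a call in the 5 comparisons. hoxb3a was called lower with TCDD in wild types only when DMSO replicate 4 was left out (-0.22, edgeR adjusted p = 0.0497).

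The first comparison asks what early TCDD exposure left changed at 48 hpf in the mutants. Among 43 tested Hox genes, 10 were higher and 7 lower in TCDD-exposed mutants than in DMSO mutants. A call here is an adjusted p under 0.05 in edgeR's quasi-likelihood test, with Benjamini-Hochberg adjustment over all 20098 genes tested. The 17 calls are 39.5% of the tested Hox genes, against 36.1% of all genes tested. Higher calls made up 23.3% of the Hox genes, against 17.5% of all genes, and lower calls 16.3%, against 18.6%. The share of Hox genes called is close to that background, so what follows concerns which genes moved and in which direction. The median log2 fold change of the 43 genes was 0.13, against 0.0045 over all genes. CPM ranges of the exposure groups did not overlap for 18 of the 43 Hox genes, or 41.9%, against 37.3% of all genes.

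The anterior change was led by hoxc1a, the paralog 1 gene of cluster hoxca (ENSDARG00000070337). Its level was 35.8, 34.2, 34.3 and 35.1 CPM in TCDD-exposed mutants, against 78.7, 63.6, 73.9 and 73.9 CPM in DMSO mutants. The TCDD pools lay within a narrow band below every DMSO pool. hoxc1a fell by 1.06 on the log2 scale (SE 0.14, edgeR adjusted p = 4.4e-05), to 0.481 of its DMSO level. hoxb2a, which with hoxa2b gives the second pharyngeal arch its identity in zebrafish, had 17.6, 18.04, 15.7 and 18.2 CPM with TCDD and 23.7, 20.5, 22.01 and 21.9 CPM with DMSO. Its pools did not overlap, and it fell by 0.34 (SE 0.11, edgeR adjusted p = 0.025). That call was lost without mutant DMSO replicate 1 (adjusted p = 0.080) or mutant TCDD replicate 3 (0.070). The other 5 tested anterior genes had log2 fold changes of -0.18 to 0.10 and no call.

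Among the 13 tested central genes, 4 rose and 2 fell, beside 17.5% higher and 18.6% lower over all genes. hoxc6a, whose mouse relative begins where the neck meets the thorax, had 12.4, 12.3, 13.4 and 11.6 CPM in TCDD-exposed mutants, against 8.85, 7.40, 7.76 and 8.20 CPM in DMSO mutants. The groups were well apart, and hoxc6a rose by 0.63 on the log2 scale (SE 0.12, edgeR adjusted p = 0.00066). hoxc8a, a trunk gene in the mouse, had 14.3, 17.4, 18.1 and 14.3 CPM with TCDD and 10.7, 11.2, 12.3 and 10.998 CPM with DMSO. It rose by 0.50 (SE 0.11, edgeR adjusted p = 0.0023), again with no overlap.

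In cluster hoxba the paralog 7 and 8 genes also rose. hoxb7a had 8.16, 6.92, 8.06 and 8.18 CPM in TCDD-exposed mutants, against 4.69, 5.42, 6.90 and 5.60 CPM in DMSO mutants. The nearest pools of the groups almost met, and the rise of 0.47 (SE 0.16, edgeR adjusted p = 0.030) was not called without mutant DMSO replicate 1, 2 or 4 or mutant TCDD replicate 1, 3 or 4, each left out singly, with adjusted p up to 0.091. hoxb8a rose by 0.36 (SE 0.11, edgeR adjusted p = 0.016), with 71.1 to 79.4 CPM with TCDD and 55.9 to 61.4 CPM with DMSO. In wild types hoxb7a had 8.35, 9.46 and 8.37 CPM with TCDD and 7.15, 11.8 and 8.02 CPM with DMSO. Its value there was -0.04 (SE 0.18, edgeR adjusted p = 0.92). hoxb8a was also at -0.04 in wild types (SE 0.13, edgeR adjusted p = 0.88). Its wild-type pools had 67.5 to 77.0 CPM with TCDD and 56.5 to 91.6 CPM with DMSO.

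The central genes that fell were hoxb5a and hoxa4a, the latter with an uncertain paralog number. hoxb5a had 39.3, 34.8, 32.1 and 36.3 CPM in TCDD-exposed mutants and 40.2, 42.9, 42.4 and 39.0 CPM in DMSO mutants, so its pools overlapped, and it fell by 0.21 (SE 0.08, edgeR adjusted p = 0.049). hoxa4a had 71.7, 68.1, 67.9 and 69.4 CPM with TCDD and 79.1, 79.1, 81.9 and 83.2 CPM with DMSO, and fell by 0.22 (SE 0.08, edgeR adjusted p = 0.036) with no overlap. Leaving out a single library ended the call of hoxb5a in 10 of 14 cases, which were all but mutant TCDD replicate 1 and the DMSO wild types, with adjusted p up to 0.13. It ended that of hoxa4a in 7 cases, any DMSO mutant or mutant TCDD replicate 2, 3 or 4, with adjusted p up to 0.085. Without mutant DMSO replicate 1 or mutant TCDD replicate 3, 4 lower Hox genes were called in place of 7.

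Of 23 posterior genes, 6 rose and 3 fell, beside 17.5% higher and 18.6% lower over all genes. All 3 that fell belong to paralog group 9. hoxc9a, whose mouse relative sets thoracic motor neuron identity, had 27.5, 26.0, 26.1 and 29.9 CPM in TCDD-exposed mutants, against 46.2, 39.6, 49.8 and 39.5 CPM in DMSO mutants. It fell by 0.68 on the log2 scale (SE 0.13, edgeR adjusted p = 0.00068), with no overlap of the pools. hoxa9a had 14.03, 12.1, 11.3 and 14.4 CPM with TCDD and 21.2, 16.7, 20.4 and 19.2 CPM with DMSO. Its fall was 0.58 (SE 0.13, edgeR adjusted p = 0.0028), and the pools were again apart. hoxb9a had 89.2, 84.1, 82.3 and 82.2 CPM with TCDD and 99.5, 99.2, 106 and 106 CPM with DMSO, a smaller but separated fall of 0.28 (SE 0.07, edgeR adjusted p = 0.0045). The other paralog 9 genes are hoxa9b, at -0.28 with no call, and hoxd9a, at 0.16 with no call.

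Beyond paralog 9, the calls were in the other direction: 1 of 4 tested genes rose at paralog 10, 2 of 5 at paralog 11, 1 of 3 at paralog 12 and 2 of 6 at paralog 13, and the rest had no call. The share of all genes called in this comparison was 36.1%, with 17.5% higher. hoxc13a, a zebrafish relative of the mouse gene known for hair and nail formation, had 6.26, 6.53, 6.53 and 5.82 CPM in TCDD-exposed mutants, against 1.79, 3.99, 3.07 and 2.39 CPM in DMSO mutants. It rose 2.22-fold, a log2 fold change of 1.15 (SE 0.22, edgeR adjusted p = 0.00069), and every TCDD pool was above every DMSO pool. With hoxc1a it was 1 of 2 Hox genes that changed at least 2-fold in the mutants. hoxc12a, of the next lower paralog number, had 11.2, 10.4, 9.91 and 11.1 CPM with TCDD and 6.33, 7.47, 6.81 and 8.53 CPM with DMSO. The groups did not overlap, and hoxc12a rose by 0.54 (SE 0.11, edgeR adjusted p = 0.0015).

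The other posterior rises came from clusters hoxca, hoxcb and hoxda. hoxc11b had 6.88, 6.26, 6.76 and 6.98 CPM in TCDD-exposed mutants, against 4.74, 4.21, 5.05 and 4.78 CPM in DMSO mutants, and rose by 0.52 (SE 0.13, edgeR adjusted p = 0.0059). hoxd13a, of the paralog group that builds the limb tip in the mouse and the fin rays in zebrafish, had 4.78, 6.31, 5.51 and 6.09 CPM with TCDD and 3.72, 3.77, 4.55 and 3.58 CPM with DMSO. Both genes had separated pools, and hoxd13a rose by 0.54 (SE 0.16, edgeR adjusted p = 0.018), a call lost without mutant TCDD replicate 2 (adjusted p = 0.057) or 4 (0.052).

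hoxd10a, whose mouse relative acts in lumbar motor neurons, had 4.16, 4.67, 3.75 and 3.45 CPM in TCDD-exposed mutants and 2.61, 2.82, 2.48 and 2.18 CPM in DMSO mutants. The pools were apart, and it rose by 0.66 (SE 0.22, edgeR adjusted p = 0.025), with no call without mutant DMSO replicate 4 or mutant TCDD replicate 1 or 2 (adjusted p up to 0.077). hoxc11a rose by 0.37 (SE 0.14, edgeR adjusted p = 0.048), at 8.42 to 10.9 CPM with TCDD and 6.90 to 7.66 CPM with DMSO. Its call was lost without any single mutant pool or wild-type TCDD replicate 1 or 3, with adjusted p up to 0.15, and in 4 of 7 other alternatives.

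**Figure D2:**
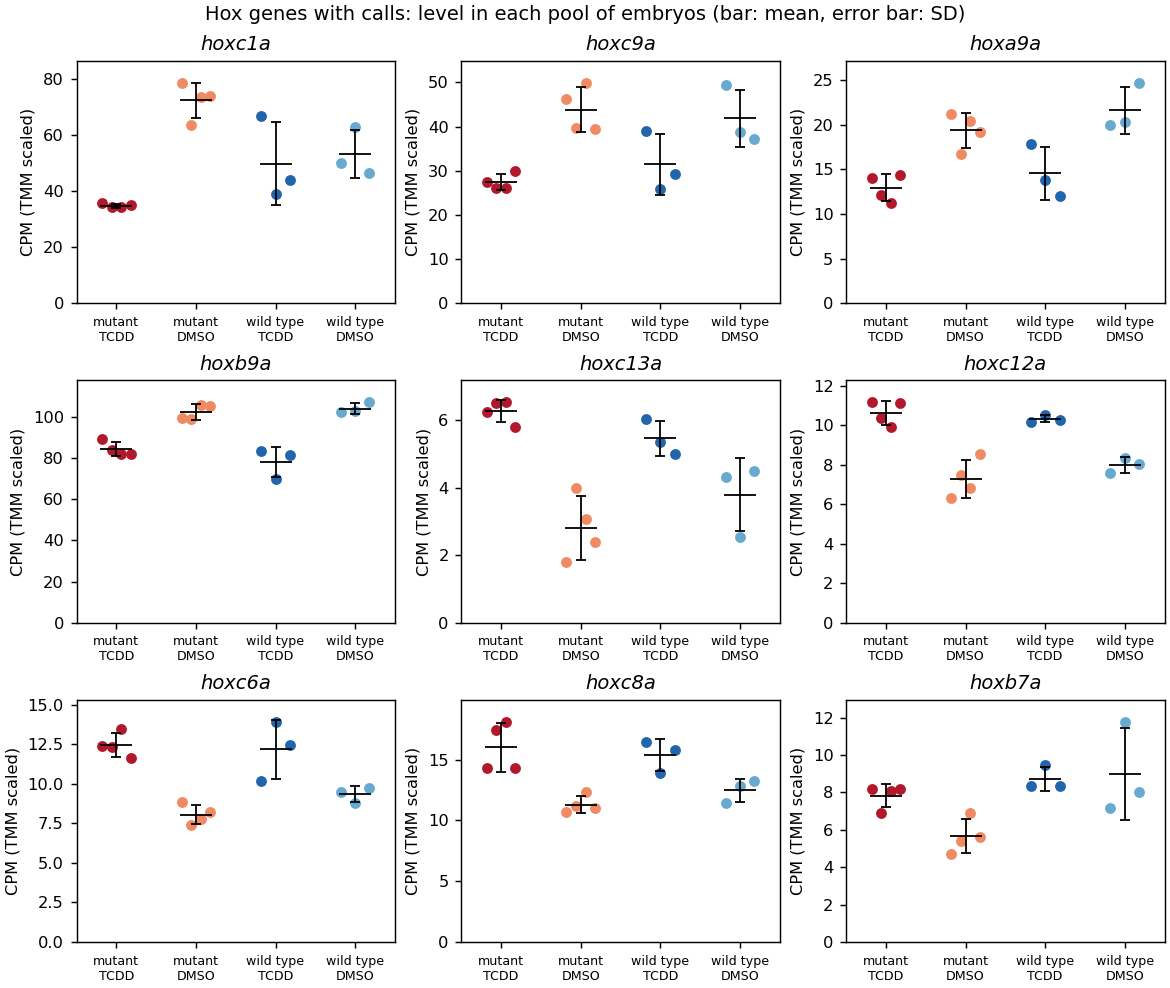
Level (CPM, TMM scaled, linear axes from 0) of 9 Hox genes with calls in each pool of the 4 groups, with points for pools, a bar for the mean and an error bar for the SD. hoxc1a lies between 34.2 and 35.8 CPM in TCDD-exposed mutants, below every other pool, and hoxc13a lies between 5.82 and 6.53 CPM there, above every DMSO pool.

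In wild types, TCDD exposure was followed by 3 lower Hox genes and no higher one. These 3 calls are 6.98% of the 43 tested genes, against 14.6% of all genes, of which 8.84% were higher and 5.75% lower. At an unadjusted p under 0.05 there were 14 Hox genes, and the count of higher Hox genes was also 0 with DESeq2 and limma-voom. With DESeq2 the split over all genes was 1776 higher and 1798 lower, compared with 1777 higher and 1156 lower in edgeR. The median log2 fold change of the Hox genes was -0.02, against 0.03 over all genes. Pools did not overlap for 9 Hox genes, or 20.9%, against 27.6% of all genes.

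The wild-type calls were hoxb9a, hoxa9a and hoxb5a, all lower and all with separated pools. hoxb9a had 83.4, 69.8 and 81.5 CPM in TCDD-exposed wild types, against 103, 103 and 107 CPM in DMSO wild types. It fell by 0.41 on the log2 scale (SE 0.08, edgeR adjusted p = 0.0042), and this call held under every alternative run. hoxa9a had 17.8, 13.8 and 12.05 CPM with TCDD and 19.99, 20.3 and 24.7 CPM with DMSO. It fell by 0.57 (SE 0.15, edgeR adjusted p = 0.019), and was not called without TCDD replicate 4 (adjusted p = 0.086), without DMSO replicate 4 (0.068) or with only the wild-type groups in the fit (0.068). hoxb5a, whose relatives act in the neck and upper trunk, had 33.3, 32.3 and 34.7 CPM with TCDD and 40.7, 44.4 and 42.3 CPM with DMSO. It fell by 0.35 (SE 0.09, edgeR adjusted p = 0.018), and was not called with only the wild-type groups in the fit (0.089).

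These genes were also called lower with TCDD in the mutants. The libraries there are different ones, but both comparisons come from the same fit with a shared estimate of the spread. For hoxb5a the mutant pools overlapped, and leaving out single libraries ended its call in 10 of 14 cases. The 3 genes are 100% of the 3 lower calls in wild types and 42.9% of the 7 lower calls in mutants. The same shares were not computed over all genes. Of the genes that rose in mutants, hoxc12a had 10.2, 10.53 and 10.3 CPM in TCDD-exposed wild types and 7.58, 8.34 and 8.02 CPM in DMSO wild types. hoxc6a had 10.2, 13.9 and 12.4 CPM with TCDD and 9.46, 8.76 and 9.75 CPM with DMSO, and hoxc13a had 6.03, 5.36 and 5.01 CPM with TCDD and 4.32, 2.55 and 4.50 CPM with DMSO. For hoxc12a, hoxc6a and hoxc13a the wild-type pools did not overlap. Their log2 fold changes of 0.37 (SE 0.13), 0.38 (SE 0.13) and 0.53 (SE 0.25) did not pass the test, at edgeR adjusted p = 0.069, 0.065 and 0.17. The other genes that rose in mutants were not called in wild types either. hoxb7a, hoxb8a and hoxc11b were slightly negative there, at -0.04, -0.04 and -0.11, and hoxc11a was at 0.04. hoxd10a was at 0.44, hoxd13a at 0.43 and hoxc8a at 0.30. For hoxc8a the wild-type pools did not overlap, with 13.9 to 16.4 CPM with TCDD and 11.4 to 13.2 CPM with DMSO. hoxc9a was at -0.41 (SE 0.15) in wild types, with edgeR adjusted p = 0.067, and was called with DESeq2, at adjusted p = 0.030, and without the low-count filter, at 0.041.

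Wild-type TCDD replicate 1 stood apart from the other TCDD pools for several genes. hoxc1a had 66.8, 38.9 and 44.0 CPM in TCDD-exposed wild types and 50.2, 63.1 and 46.6 CPM in DMSO wild types, so the groups overlapped and its log2 fold change of -0.10 (SE 0.16) was not called. hoxc9a showed the same high first pool, with 39.0, 25.8 and 29.3 CPM with TCDD and 49.3, 38.8 and 37.3 CPM with DMSO. Without that pool, 6 Hox genes were lower and 1 higher in wild types: hoxc1a at -0.42 (edgeR adjusted p = 0.038), hoxc9a at -0.66 (0.0085) and hoxc3a at -0.41 (0.038) were also lower, and hoxc6a, at 0.44 (0.044), was higher. A single higher gene also appeared without DMSO replicate 3 or TCDD replicate 4, where it was hoxb4a (0.53 and 0.55), and without DMSO replicate 4, where it was hoxd10a (0.80). Replicate 1 had the fewest wfikkn1 counts of its group, and a link to its Hox values was not tested. It also had a lower sample number in its title (5) than the other TCDD-exposed wild-type pools (13 and 14).

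The largest wild-type value belonged to a gene with few reads. hoxa11a had 0.491, 0.755 and 0.828 CPM in TCDD-exposed wild types and 0.385, 0.371 and 0.223 CPM in DMSO wild types. The pools did not overlap, but the log2 fold change of 1.07 (SE 0.44) did not pass the test (edgeR adjusted p = 0.12). In mutants it had 0.971, 0.794, 0.371 and 0.776 CPM with TCDD and 0.532, 0.623, 0.586 and 0.947 CPM with DMSO, at 0.12 (SE 0.35) with overlap.

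Whether the TCDD effect differed between lines was tested as the difference of the log2 fold changes, mutant minus wild type. Of the 17 Hox genes called in mutants, 14 had no call in wild types, but among them hoxc1a alone had a called difference. That is 2.33% of the Hox genes, against 12% of all genes, of which 1.85% had a positive and 10.2% a negative difference. In DESeq2 the split over all genes was 832 positive and 2098 negative, compared with 372 and 2044 in edgeR. The difference for hoxc1a was -0.96 (SE 0.21, edgeR adjusted p = 0.0045), with -1.06 in mutants and -0.10 in wild types. It was called in every alternative run, at -0.64 to -1.11. The smallest of these came without wild-type TCDD replicate 1, with adjusted p = 0.016; the highest adjusted p over the alternatives was 0.020.

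Including hoxc1a, 4 Hox genes had a difference at an unadjusted p under 0.05. hoxc11b differed by 0.63 (SE 0.20, edgeR adjusted p = 0.052), at 0.52 in mutants and -0.11 in wild types. In wild types it had 5.32, 6.12 and 6.30 CPM with TCDD and 5.99, 5.56 and 7.57 CPM with DMSO, with overlap. Its difference was called with DESeq2, at adjusted p = 0.029, with RLE scaling, at 0.041, and without wild-type DMSO replicate 3 (0.031) or TCDD replicate 3 (0.048). hoxb8a, at 0.40 with adjusted p = 0.14, was called without wild-type DMSO replicate 1 (0.55, adjusted p = 0.013). The remaining gene of the 4 was hoxc4a, at 0.37 (SE 0.17, edgeR adjusted p = 0.18). hoxc13a, the gene with the largest rise in mutants, was not among the 4. Its difference was 0.62 (SE 0.33) with edgeR adjusted p = 0.25.

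**Figure D3:**
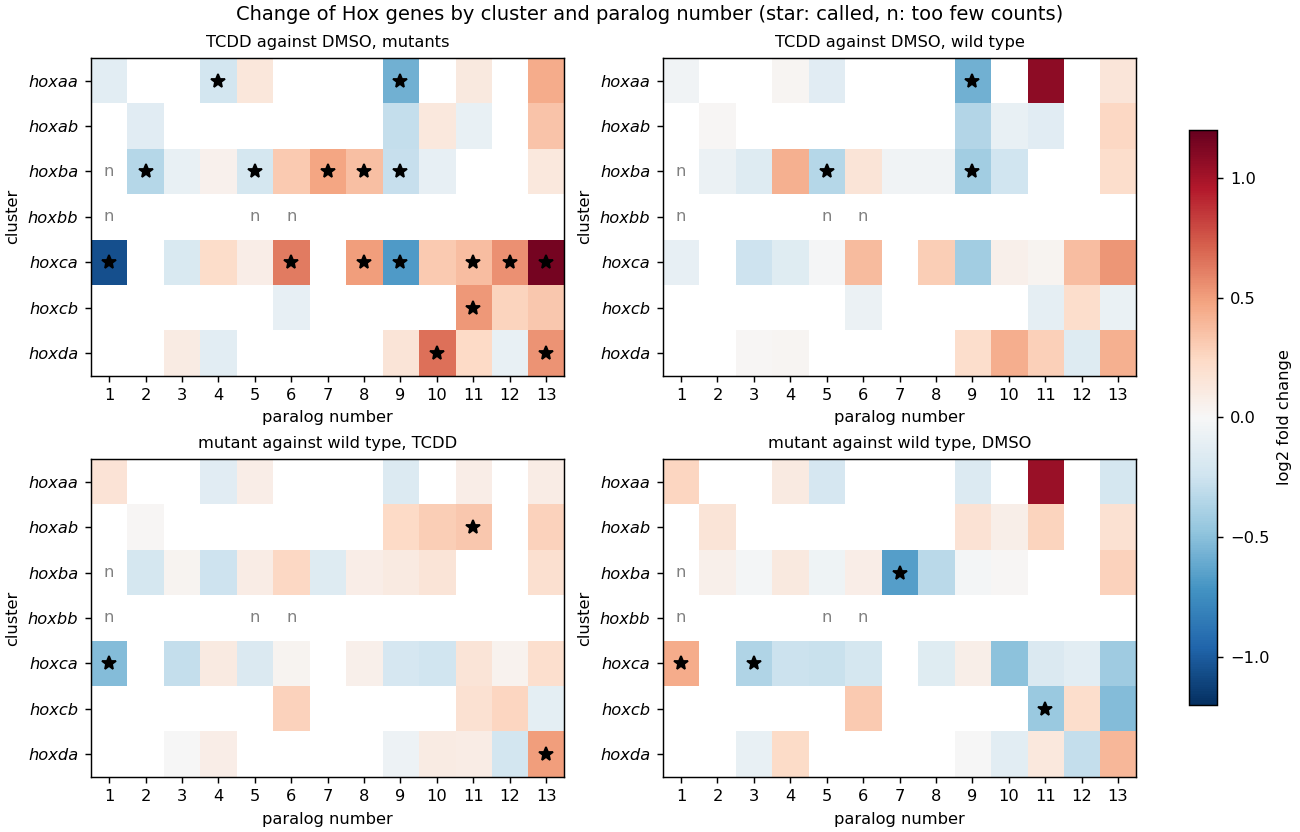
Log2 fold change (colour scale) of each tested Hox gene by cluster (rows) and paralog number (columns), for TCDD against DMSO in mutants and in wild types and for mutant against wild type with TCDD and with DMSO. Stars mark calls and n marks members with too few counts: 17 stars stand in the mutant TCDD panel, 7 of them in the hoxca row, against 3 in the wild-type TCDD panel.

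In DMSO, the mutants differed from wild types at 4 Hox genes, 1 higher and 3 lower. This is 9.30% of the tested Hox genes, against 16.8% of all genes, of which 8.21% were higher and 8.6% lower. Pools did not overlap for 10 Hox genes, or 23.3%, against 23.6% of all genes. hoxb7a had 4.69, 5.42, 6.90 and 5.60 CPM in DMSO mutants, against 7.15, 11.8 and 8.02 CPM in DMSO wild types. All mutant pools were lower, and the fall of 0.67 (SE 0.17, edgeR adjusted p = 0.014) shrank to -0.42 (adjusted p = 0.083) without wild-type DMSO replicate 3, which was the highest pool.

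The other calls in DMSO also changed when single pools were left out. hoxc3a had 51.6, 53.4, 53.98 and 47.8 CPM in DMSO mutants and 72.4, 56.4 and 69.8 CPM in DMSO wild types, a fall of 0.36 (SE 0.11, edgeR adjusted p = 0.030) that was not called without wild-type DMSO replicate 1 or 4 or mutant DMSO replicate 1, 2 or 4 (adjusted p up to 0.11). hoxc11b fell by 0.44 (SE 0.14, edgeR adjusted p = 0.043), and was not called without wild-type DMSO replicate 1 or 4, mutant DMSO replicate 1, 2 or 4, or any TCDD-exposed mutant pool (adjusted p up to 0.22). hoxc1a rose by 0.44 (SE 0.15, edgeR adjusted p = 0.049), with every DMSO mutant pool above every DMSO wild-type pool, and was not called without wild-type DMSO replicate 1 or 4, wild-type TCDD replicate 4, mutant DMSO replicate 1, 3 or 4, or any TCDD-exposed mutant pool (adjusted p up to 0.19). Without wild-type DMSO replicate 4, or without mutant DMSO replicate 1, 2 or 4, 1 lower gene was called in place of 3. The largest value in this comparison, 1.04 for hoxa11a, was not called (edgeR adjusted p = 0.10). hoxb7a, hoxc11b and hoxc1a had calls in the opposite direction with TCDD in mutants. Both comparisons use the same DMSO mutant pools, so these calls are not independent of each other.

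With TCDD, mutants differed from wild types at 3 Hox genes, 2 higher and 1 lower. These are 6.98% of the Hox genes, against 27.6% of all genes, of which 10.7% were higher and 16.9% lower. Pools did not overlap for 8 Hox genes, or 18.6%, against 37.1% of all genes. hoxc1a fell by 0.52 in TCDD-exposed mutants relative to TCDD-exposed wild types (SE 0.15, edgeR adjusted p = 0.015), but without wild-type TCDD replicate 1 the value was -0.19 (adjusted p = 0.26), so that no lower gene was called, and hoxa10b (0.50) and hoxa1a (0.40) were called higher. hoxa11b, whose mouse relative acts in kidney and forearm, had 34.5, 31.8, 34.6 and 31.7 CPM in TCDD-exposed mutants and 27.6, 23.1 and 28.9 CPM in TCDD-exposed wild types. It rose by 0.32 (SE 0.10, edgeR adjusted p = 0.027) with no overlap, and was not called without wild-type TCDD replicate 3 (0.072), mutant TCDD replicate 1 (0.065) or mutant TCDD replicate 3 (0.064).

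hoxd13a rose by 0.50 in the same comparison (SE 0.18, edgeR adjusted p = 0.046), with every mutant pool above the 3.48, 4.41 and 4.09 CPM of TCDD-exposed wild types. Its call was lost without wild-type TCDD replicate 1 or 4 or mutant TCDD replicate 2, 3 or 4 (adjusted p up to 0.12). hoxc3a had 50.8, 44.2, 39.9 and 47.7 CPM in TCDD-exposed mutants, below every one of the 63.6, 52.4 and 51.4 CPM of TCDD-exposed wild types, at -0.29 (SE 0.11) with edgeR adjusted p = 0.054. It was called without any single DMSO wild-type pool, wild-type TCDD replicate 4 or mutant TCDD replicate 1, which made 2 lower genes in place of 1. Over the 5 comparisons, 19 of the 43 tested Hox genes had a call and 24 had none.

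Ordered by paralog number, the TCDD values in mutants were mostly negative for low numbers, mostly positive for middle and high numbers, and mostly negative at paralog 9. The median log2 fold change was -0.13 over 7 anterior genes, 0.14 over 13 central genes and 0.24 over 23 posterior genes, against 0.0045 over all genes. At paralog 9, 4 of 5 genes were negative, with a median of -0.28 and 3 lower calls; in wild types 4 of 5 were negative, with a median of -0.41 and 2 lower calls. At paralog 13, 6 of 6 genes were positive in mutants, with a median of 0.40 and 2 higher calls, and 5 of 6 were positive in wild types, with a median of 0.23 and no call. Across the 43 genes Spearman's rho between paralog number and log2 fold change was 0.55 in mutants and 0.32 in wild types. Within the 11 hoxca genes it was 0.69 in mutants and 0.61 in wild types, the highest of the clusters examined. Within 10 hoxba genes it was 0.28 in mutants and -0.02 in wild types. For 7 hoxda genes the values were 0.43 and 0.32, and for 6 hoxaa genes 0.49 and 0.43. These are descriptions across genes that share the same libraries, and they carry no test. Calls over all genes were 17.5% higher and 18.6% lower in mutants, and 8.84% higher and 5.75% lower in wild types.

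**Figure D4:**
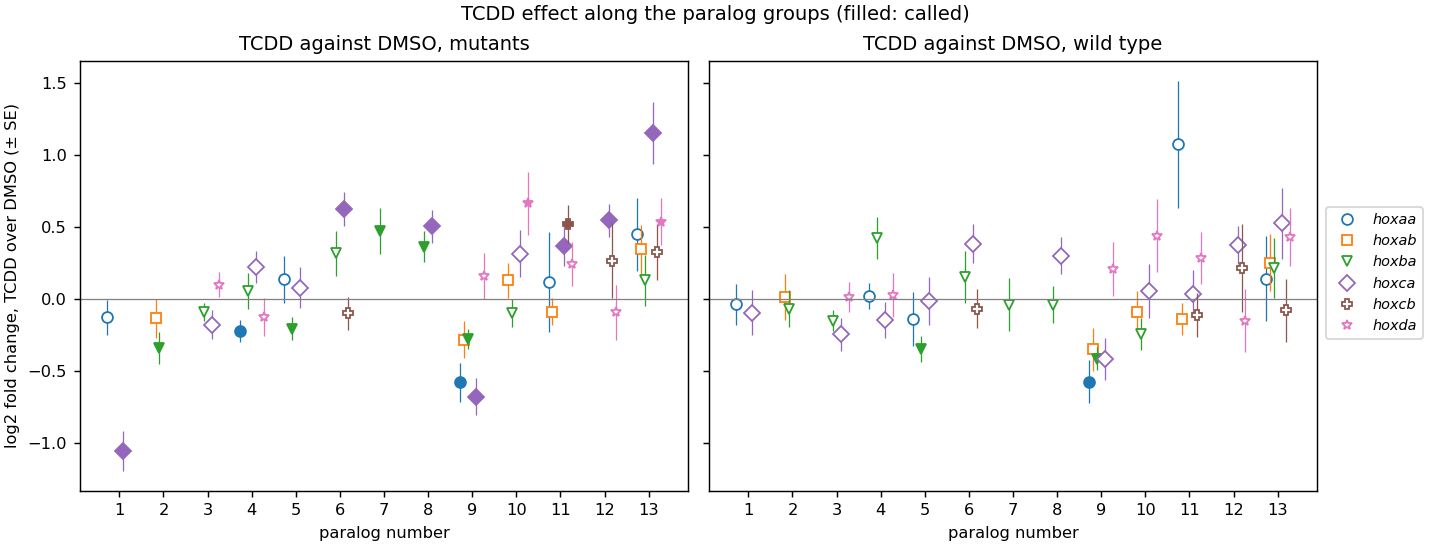
Log2 fold change of TCDD over DMSO (± SE) against paralog number for each tested Hox gene, mutants on the left and wild types on the right, with a symbol for each cluster and filled symbols for calls. In both panels 4 of 5 paralog 9 genes lie below 0; at paralog 13 all 6 genes lie above 0 in mutants and 5 of 6 in wild types.

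By cluster, hoxca had the most calls in mutants with TCDD, 5 higher and 2 lower of 11 genes, with a median log2 fold change of 0.31. The share called over all genes was 36.1%. hoxba had 2 higher and 3 lower of 10, hoxaa 0 higher and 2 lower of 6, hoxda 2 higher of 7 and hoxcb 1 higher of 4. hoxab had no call among 5 genes in edgeR, DESeq2 or limma-voom over all 14 libraries and 4 groups, and 1 of the 5 reached an unadjusted p under 0.05. In edgeR hoxa13b was called with only the mutant groups in the fit (0.34, adjusted p = 0.047), and hoxa9b without wild-type DMSO replicate 4 (-0.29, adjusted p = 0.049) or mutant DMSO replicate 4 (-0.37, adjusted p = 0.034). No test of a difference between clusters was run. In the RefSeq gene table, which belongs to another assembly, hoxc3a overlaps hoxc4a, hoxc5a, hoxc6a, hoxc8a and hoxc9a, and hoxb3a overlaps hoxb4a, hoxb5a and hoxb6a. There hoxb1b overlaps hoxb5b and hoxb6b, and hoxd3a overlaps hoxd4a. hoxa4a and hoxa5a overlap hoxa3a, a name not among the Hox genes counted here. The counting rule for overlapping genes is not given in the sources used here, so reads of these genes may be split or dropped. The identifier named hoxa4a in the authors' deposited table carries the name HOXA3 in the gene name table, so its identity is uncertain. It was counted here as paralog 4. As paralog 3 it would belong to the anterior genes, and the anterior and central sums, counts and medians would change.

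Copies of a duplicated gene did not always have the same value. hoxc6b had 24.9, 22.9, 23.4 and 22.6 CPM in TCDD-exposed mutants and 26.9, 22.4, 26.0 and 25.3 CPM in DMSO mutants, at -0.10 (SE 0.11, edgeR adjusted p = 0.52), while hoxc6a rose by 0.63. hoxc12b had 3.54, 3.13, 2.46 and 4.03 CPM with TCDD and 2.51, 3.55, 2.53 and 2.35 CPM with DMSO, at 0.26 (SE 0.26, edgeR adjusted p = 0.46), beside 0.54 for hoxc12a. The pools of both b copies overlapped. hoxc13b was at 0.32 (SE 0.19, edgeR adjusted p = 0.21), beside 1.15 for hoxc13a, and hoxc11a and hoxc11b both rose.

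Among the hoxa pairs, hoxa9b had the same sign as hoxa9a in both lines, at -0.28 in mutants and -0.35 in wild types, with edgeR adjusted p = 0.095 and 0.13. hoxa13a and hoxa13b were at 0.45 and 0.34 in mutants with no call. hoxa13b had 4.94, 5.38, 5.14 and 5.31 CPM in TCDD-exposed mutants and 3.92, 4.25, 4.24 and 3.95 CPM in DMSO mutants, so that its pools were apart. In wild types it had 5.09, 3.77 and 4.00 CPM with TCDD and 4.67, 2.55 and 3.56 CPM with DMSO, with overlap. Differences between copies were not tested.

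Calls among the partners of Hox proteins went both ways. Of 11 TALE cofactor genes measured, 2 were higher and 4 lower with TCDD in mutants, with a median log2 fold change of -0.04, and 2 were higher and 3 lower in wild types, with a median of -0.02. The other 5 in mutants and 6 in wild types had no call, and of all genes 36.1% were called in mutants and 14.6% in wild types. The Pbx genes pbx2, pbx1a and pbx4 fell by 0.61, 0.47 and 0.39 in mutants and by 0.39, 0.35 and 0.34 in wild types, with edgeR adjusted p of 0.032 or less. pbx3a rose by 0.66 in wild types (edgeR adjusted p = 0.0099). pbx1b fell by 2.38 in mutants (edgeR adjusted p = 0.00025) but was at 1.21 in wild types (adjusted p = 0.057), and the difference between lines was -3.59 (adjusted p = 0.00041). Between lines, 1 cofactor was higher in DMSO mutants than in DMSO wild types, and 2 were higher and 1 lower in TCDD-exposed mutants than in TCDD-exposed wild types. Between lines, 16.8% of all genes were called in DMSO and 27.6% with TCDD.

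Of 12 upstream genes, 11 were tested. gdf11, the ligand that WFIKKN1 binds, had at most 0.496 CPM and was not tested. With TCDD, 1 was higher and 3 lower in mutants, with a median log2 fold change of 0.18, and 1 was higher and 2 lower in wild types, with a median of -0.07. The shares called over all genes were 36.1% in mutants and 14.6% in wild types. cdx1b, a Cdx factor of the gut, fell by 0.73 in mutants and by 0.64 in wild types (edgeR adjusted p = 0.00053 and 0.013). cyp26b1, which breaks down retinoic acid, fell by 0.53 in mutants and by 0.65 in wild types (edgeR adjusted p = 0.0024 and 0.0063). cyp26c1, of the same family, fell by 0.39 and the retinoic acid receptor gene rarga rose by 0.20 in mutants (edgeR adjusted p = 0.0085 and 0.025). rargb rose by 2.83 in wild types (edgeR adjusted p = 0.020), with 0.267 to 6.88 CPM over all libraries. In mutants it was at -1.47 (adjusted p = 0.089), and the difference between lines was -4.31 (adjusted p = 0.0077). Between lines in DMSO there were 0 calls in edgeR, DESeq2 and limma-voom, and 3 genes at an unadjusted p under 0.05. There edgeR called 16.8% of all genes.

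Among 16 genes of Polycomb and Trithorax complexes, 2 were higher and 8 lower with TCDD in mutants, with a median log2 fold change of -0.24, and 1 was higher and 4 lower in wild types, with a median of -0.11. Over all genes, 17.5% were higher and 18.6% lower in mutants, and 8.84% higher and 5.75% lower in wild types. ezh2, the histone methyltransferase of Polycomb, fell by 0.58 in mutants and by 0.57 in wild types (edgeR adjusted p = 1.4e-05 and 0.00039). kmt2a, a Trithorax methyltransferase that keeps Hox genes active, fell by 1.08 in mutants and rose by 0.73 in wild types (edgeR adjusted p = 0.00011 and 0.014), a difference of -1.82 (adjusted p = 0.0002). kmt2ba fell by 0.51 in mutants and was at 0.32 in wild types (edgeR adjusted p = 0.0017 and 0.093). Its difference was -0.83 (adjusted p = 0.0022). bmi1b fell by 0.31 in mutants and by 0.61 in wild types (edgeR adjusted p = 0.013 and 0.0026). suz12a fell by 0.23 and 0.39 (adjusted p = 0.038 and 0.012). suz12b, a Polycomb subunit, rose by 0.96 with TCDD in mutants (edgeR adjusted p = 0.0032) and was at -1.55 in DMSO mutants relative to DMSO wild types (edgeR adjusted p = 0.0003). Genes beside or inside the clusters were only counted: of 34 tested, 8 were higher and 4 lower with TCDD in mutants, and 1 was higher and 2 lower in wild types. Calls over all genes were 36.1% in mutants and 14.6% in wild types.

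Markers of tissues in which Hox genes are active were counted as well, beside 36.1% of all genes called with TCDD in mutants and 14.6% in wild types. Of 5 tested spinal cord and motor neuron markers, 4 were higher with TCDD in mutants; in wild types edgeR, DESeq2 and limma-voom called 0, and 1 reached an unadjusted p under 0.05. The list summed to 85.4 to 98.4 CPM in TCDD-exposed mutants, 67.1 to 74.2 CPM in DMSO mutants, 76.7 to 89.6 CPM in TCDD-exposed wild types and 65.8 to 80.4 CPM in DMSO wild types, with mnx1 at 0 in all. Of 6 somite and muscle markers, 3 were higher in mutants and 1 in wild types. Their sums were 2365 to 2686 CPM in TCDD-exposed mutants, 1432 to 1579 CPM in DMSO mutants, 2455 to 3081 CPM in TCDD-exposed wild types and 1686 to 2481 CPM in DMSO wild types. In mutants both sums were higher with TCDD and did not overlap between exposures. The somite and muscle sum is weighted to actc1b, which had 950 to 2337 CPM over all libraries. In the same list tnnt3a had 333 to 625 CPM and mylpfa at most 0.989 CPM.

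Pan-neuronal markers went the other way. Of 6, 1 was higher and 3 lower in mutants and 2 were lower in wild types, with sums of 3150.3 to 3329 CPM in TCDD-exposed mutants, 3657 to 3813 CPM in DMSO mutants, 3358 to 3630.0 CPM in TCDD-exposed wild types and 3489 to 3988 CPM in DMSO wild types. Of 8 tailbud markers listed, 6 matched an identifier and 4 were tested. The 6 summed to 24.0 to 29.2 CPM in TCDD-exposed mutants and 29.7 to 32.9 CPM in DMSO mutants. Their sums were 22.5 to 27.7 CPM in TCDD-exposed wild types and 26.8 to 31.1 CPM in DMSO wild types. In that list 1 gene was lower in mutants, and in wild types edgeR and limma-voom called 0 and DESeq2 1. Hindbrain markers summed to 193.2 to 231.2 CPM in TCDD-exposed mutants, 223.5 to 246.6 CPM in DMSO mutants, 179.6 to 188.8 CPM in TCDD-exposed wild types and 215.1 to 239.9 CPM in DMSO wild types, and 1 of 3 was lower in each line. With TCDD the pan-neuronal and tailbud sums were lower without overlap in mutants only, and the hindbrain sum in wild types only. Over all libraries, the pan-neuronal sum is weighted to elavl3 (1355 to 1868 CPM) and elavl4 (688 to 901 CPM). The tailbud sum is weighted to tbxta (17.3 to 26.3 CPM).

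Calls among markers of the fin bud and kidney were mixed. Of 6 pectoral fin bud markers, 2 were higher and 1 lower in mutants, and 1 was higher and 1 lower in wild types, with sums of 986.1 to 1057 CPM in TCDD-exposed mutants, 903.0 to 947.0 CPM in DMSO mutants, 867.0 to 928.6 CPM in TCDD-exposed wild types and 845.9 to 908.8 CPM in DMSO wild types. Of 5 pronephros markers, 2 were higher and 1 lower in mutants, and in wild types edgeR, DESeq2 and limma-voom called 0, with 0 at an unadjusted p under 0.05. Their sums were 204.1 to 225.1 CPM in TCDD-exposed mutants, 161.0 to 169.5 CPM in DMSO mutants, 181.5 to 214.4 CPM in TCDD-exposed wild types and 165.6 to 196.0 CPM in DMSO wild types. The fin bud and pronephros sums were also higher with TCDD in mutants, with no overlap between exposures, while the wild-type sums overlapped. Over all libraries, the fin bud sum is weighted to and1 (392 to 579 CPM) and and2 (208 to 305 CPM). The pronephros sum is weighted to atp1a1a.4 (87.9 to 145 CPM) and cdh17 (58.6 to 75.2 CPM). The part of these tissue markers in the Hox changes was not tested.

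In the authors' deposited table of TCDD against DMSO in mutants, 17 Hox genes are listed, 10 higher and 7 lower. The authors' deposited table for wild types lists 3, all lower. The authors' deposited tables of mutants against wild types list 4 Hox genes with TCDD, 2 higher and 2 lower, and 3 in DMSO, all lower.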

How the data were processed

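RNA of pooled whole embryos was poly(A)-selected for stranded single-end sequencing, per the labels' protocols. The deposited matrix holds the authors' raw read counts per gene. The submitters' processing notes name HTSeq 0.12.4, SAMtools 1.10, HISAT2 2.2.0, cutadapt 1.8.1, edgeR and assembly GRCz11; the strand setting and annotation release are not given in the sources used here. For 4 comparisons the authors also deposited log2 values (ratio and mean level), p-values with false discovery rates, and an F statistic, which is a score of their test, per the file headers. Those tables gave gene names and the listed genes only.

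The fit to the counts used edgeR 4.0.16 in R 4.3.3 (TMM, filterByExpr, quasi-likelihood test, a mean for each of 4 groups, 14 libraries). It tested 20098 genes and left out 12422. Calls have a Benjamini-Hochberg adjusted p under 0.05 over all genes tested. Each SE was obtained by dividing the log2 fold change by the root of its F statistic. TMM factors ran between 0.970 and 1.02, and the biological coefficient of variation was 0.151. The script was tested on simulated data. Whether pools share parents or a day is not given in the sources used here, so p-values measure the spread between these pools. Alternatives were RLE scaling, no low-count filter, DESeq2 1.42.0, limma-voom (limma 3.58.1), only the groups compared, a replicate block, a sample number term, leaving out each library and, for sums, no TMM.

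Of the 47 Hox genes, 19 were named from the authors' tables and 28 from a gene name table, where 19 received their zebrafish symbol by elimination against RefSeq and are less certain. RefSeq (GRCz12tu) served only for names and neighbours. Values per library, in some groups only ranges or none, are given for called genes, up to 5 per comparison and direction by smallest p. The genes of highest and lowest mean CPM in each cluster were treated likewise. Other values are summaries. In the pathway and marker lists all calls were counted. Genes named there as called are among the 4 of smallest p in a comparison, and some of these were not named. Listed names without a single matching identifier were left out. Names matched for 11 of 14 TALE cofactors and 16 of 18 Polycomb and Trithorax genes. Among markers they matched for 6 of 8 tailbud, 6 of 9 spinal cord, 4 of 5 hindbrain and 6 of 7 pan-neuronal genes. For the fin bud 6 of 8 matched, and for the pronephros 5 of 7. The members, lists and tests were chosen with earlier results of these data known.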

Additional observations from a re-analysis of the deposited data

Results flagged for a closer look

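The TCDD effect on hoxc1a differed between lines, with -1.06 in mutants and -0.10 in wild types, a difference of -0.96 on the log2 scale (edgeR adjusted p = 0.0045). Each of the 4 TCDD-exposed mutant pools was below each of the 4 DMSO mutant pools, while the wild-type pools overlapped. That overlap came from wild-type TCDD replicate 1 (66.8 CPM). Without it hoxc1a was called lower with TCDD in wild types (-0.42, edgeR adjusted p = 0.038), and the difference between lines was -0.64. hoxc1a was also 0.44 higher in DMSO mutants than in DMSO wild types, a call lost in 10 of 14 cases of leaving out a library.

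Within groups, hoxb7a was low in mutant TCDD replicate 2, at 6.92 CPM against 8.06 to 8.18 CPM in the other 3 pools. hoxc12b was high in mutant DMSO replicate 2, at 3.55 CPM against 2.35 to 2.53 CPM in the other 3. Gaps of single pools were examined in 52 sets of 4 pools, and chance alone marks about 1 in 20.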

How the results depend on the processing

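Of 28 gene calls, 12 held in all alternatives: hoxc1a, hoxc6a, hoxc8a, hoxc9a, hoxc12a, hoxc13a, hoxc11b, hoxa9a, hoxb9a and hoxb8a in mutants with TCDD, hoxb9a in wild types, and the difference for hoxc1a. Over 587 recomputed values none changed direction, 491 kept their call and 96 lost it. Using only the groups compared gave 1 lower Hox gene in wild types and 1 lower in DMSO mutants, in place of 3 each; over all genes it gave 767 higher and 361 lower in wild types, in place of 1777 and 1156, and 1010 higher in DMSO mutants, in place of 1650. In DMSO mutants 0 Hox genes were higher with RLE scaling, the replicate block or the sample number term, in place of 1. With the sample number term, 2 Hox genes were lower in TCDD-exposed mutants than in TCDD-exposed wild types, in place of 1. For the difference of TCDD effects, RLE scaling and DESeq2 each gave 1 positive gene, hoxc11b, in place of 0. Without TMM factors the summed level was 1054 CPM in DMSO wild types, in place of 1068, the wild-type exposures overlapped in the sum over all 47 genes, and the central sum 323.9 CPM in TCDD-exposed mutants, in place of 322.4. The causes were not tested.

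Leaving out each library gave 7 to 10 higher and 4 to 8 lower Hox genes in mutants with TCDD, 0 to 1 and 2 to 6 in wild types, 0 to 1 and 1 to 3 for mutants against wild types in DMSO, 0 to 3 and 0 to 2 with TCDD, and 0 to 1 positive and 1 to 1 negative differences. The 4 lower genes came without mutant DMSO replicate 1 or mutant TCDD replicate 3, where hoxb2a, hoxb5a and hoxa4a were not called.

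Replicate numbers have no stated meaning. In the sample titles, replicates 1 and 2 carry sample numbers 1 to 8, and replicates 3 and 4 carry 9 to 16. In each wild-type group replicate 1 is thus the only pool of the lower numbers. Of 19 same-numbered pairs, 5 had correlated deviations above 0.1 (range -0.357 to 0.326), and 4 of 14 libraries correlated best with their own number. With the replicate block, hoxa4a (edgeR adjusted p = 0.056), hoxb5a (0.079) and hoxc11a (0.057) were not called for TCDD against DMSO in mutants. For mutants against wild types in DMSO, hoxc1a (0.051) and hoxc11b (0.097) were not called. Between TCDD-exposed mutants and TCDD-exposed wild types, 1 Hox gene, hoxa11b, was higher, in place of 2. Low counts limit hoxa11a, hoxb1a and the hoxbb genes.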
